A study of Mus musculus with 6 samples.

Results

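The mature miRNAs miR-10a-5p, miR-10b-5p, miR-99a-5p, miR-100-5p and miR-125b-5p were followed in immune cells isolated from mouse liver. They were taken by name from the deposited table, as the miR-10 and miR-100 family outside the Spaca6 gene together with the cluster partner miR-125b-5p, and all 5 of 5 were found among 1960 listed miRNAs. The members were chosen by family, but with fold changes of the ConA+Vehicle against Vehicle comparison in view, and they are treated as selected on those values. Values of that comparison, and of ConA+D8THC against Vehicle, which has the same Vehicle libraries, are therefore given for the members as a description, with no p-value or call. The comparison of ConA+D8THC with ConA+Vehicle is given with its test. It uses the same ConA+Vehicle libraries, so members selected for low values there lean towards higher values in ConA+D8THC, and its p-values and intervals are not corrected for this.

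Small RNA libraries came from female wildtype mice of the C57BL/6J strain, 10 weeks old, in 3 groups of 2 libraries, which the labels call biological replicates. Animals of the Vehicle group had no disease and received DMSO, which the protocol gives as DMSO in corn oil. In ConA+Vehicle, hepatitis was brought on with the lectin concanavalin A (ConA), a T cell mitogen, injected retro-orbitally at 12.5 mg/kg. In ConA+D8THC, the cannabinoid delta-8-THC (D8THC) was added to the same ConA dose as intraperitoneal injections of 20 mg/kg (100 µL), the first 15 to 18 h ahead of ConA and the next 30 min after. The sources used here do not give the hour of collection or how many mice stand behind a library, so p-values measure the spread between these libraries only.

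MicroRNAs are short RNAs that guide Argonaute proteins to messenger RNAs, mainly by pairing of the seed, the bases near their 5′ end. The miR-10 genes lie inside Hox gene clusters, and miR-10a is known from endothelium and from regulatory T cells. The miR-99 and miR-100 miRNAs are known for repressing mTOR pathway genes. They are transcribed with a let-7 gene and a miR-125 gene in clusters that were duplicated in vertebrates, and miR-125b is known from haematopoietic stem cells and from many non-haematopoietic tissues. Because the libraries are bulk samples, fewer cells of a type and less of a miRNA per cell cannot be told apart.

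The mature sequences show how closely the family members resemble each other, which bears on how well their counts can be separated. All 5 members matched RefSeq's miRNA annotation (GRCm38.p6, equivalent to mm10). Each is printed 5′ to 3′ with the seed, bases 2 to 8, in capitals; miR-99b-5p and miR-125a-5p, the paralogs of the Spaca6 cluster, are shown for comparison.
miR-10a-5p: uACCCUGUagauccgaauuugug
miR-10b-5p: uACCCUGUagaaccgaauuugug
miR-99a-5p: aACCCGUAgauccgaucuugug
miR-100-5p: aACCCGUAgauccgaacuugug
miR-99b-5p: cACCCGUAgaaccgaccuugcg
miR-125b-5p: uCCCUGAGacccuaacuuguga
miR-125a-5p: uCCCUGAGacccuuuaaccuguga

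The members fall into 3 seed groups. The seed ACCCUGU belongs to miR-10a-5p and miR-10b-5p and to no other of the 1679 mature miRNAs in the annotation table. The seed ACCCGUA is held by miR-99a-5p, miR-100-5p and miR-99b-5p. The seed CCCUGAG is held by miR-125b-5p, miR-125a-5p and 3 further entries. Counted from 1 at the 5′ end, miR-10a-5p and miR-10b-5p differ by the single substitution U12A, and miR-99a-5p and miR-100-5p by U16A. Apart from their first bases, miR-10a-5p and miR-100-5p have the run GUAGAUCCGAA in common, which starts at base 7 of the former and base 6 of the latter, so the families are offset by 1 base and do not have a seed in common. The sources used here do not say how the authors assigned reads that fit more than 1 miRNA, and the split within either near-identical pair is uncertain to that extent.

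The members come from 4 chromosomes. Mir10a lies on the plus strand of chromosome 11, 96317165 to 96317274, outside any annotated host and 993 bp from Hoxb4 in GENCODE M21 (mm10). Mir10b lies on chromosome 2, 74726070 to 74726137, in introns of Hoxd3 and Hoxd4. Mir99a (chromosome 16, 77598936 to 77599000), Mirlet7c-1, which begins 657 bp further on, and Mir125b-2 (77646273 to 77646343) all lie in introns of the noncoding host Mir99ahg. The second cluster has Mir100 (chromosome 9, 41531425 to 41531504), Mirlet7a-2 and Mir125b-1 (41581926 to 41582002) in introns of the noncoding gene 3110039I08Rik. The mature miR-125b-5p from Mir125b-1 (41581940 to 41581961) and from Mir125b-2 (77646279 to 77646300) has the same sequence, so its count joins both loci.

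Library totals ran from 322764 to 1172389 counts and were lowest in the ConA+Vehicle pair. The members held 58 to 16488 counts in a library, and all 5 passed the filter on low counts with 297 of the 1960 miRNAs. Levels are given as CPM, counts scaled to a common library total with TMM factors, which adjust library sizes for differences in composition. Markers of other liver cells were abundant beside the pan-haematopoietic miR-142a arms, which took 2.53% to 11.2% of the counts of a library. The endothelial miR-126a arms took 12.8% to 34.2% and hepatocyte markers 5.18% to 19.7%, so miRNAs typical of endothelium and hepatocytes were abundant in cells labelled as immune.

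Together the 5 members took 2.08% and 2.19% of all counts in the Vehicle libraries, 0.845% and 0.739% in ConA+Vehicle, and 1.23% and 1.31% in ConA+D8THC. The Vehicle libraries held the largest share, ConA+Vehicle the smallest, and ConA+D8THC lay between, with no overlap between the groups. miR-10a-5p was the most abundant member in every library and miR-125b-5p the next, followed by miR-99a-5p, miR-100-5p and miR-10b-5p. The levels of neighbours in this order did not overlap within any group. The last neighbours came close in ConA+Vehicle, where miR-100-5p and miR-10b-5p had 83 and 82 counts in replicate 1. The mature members are 22 or 23 bases long, so levels were compared between them without scaling by length.

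**Figure D1:**
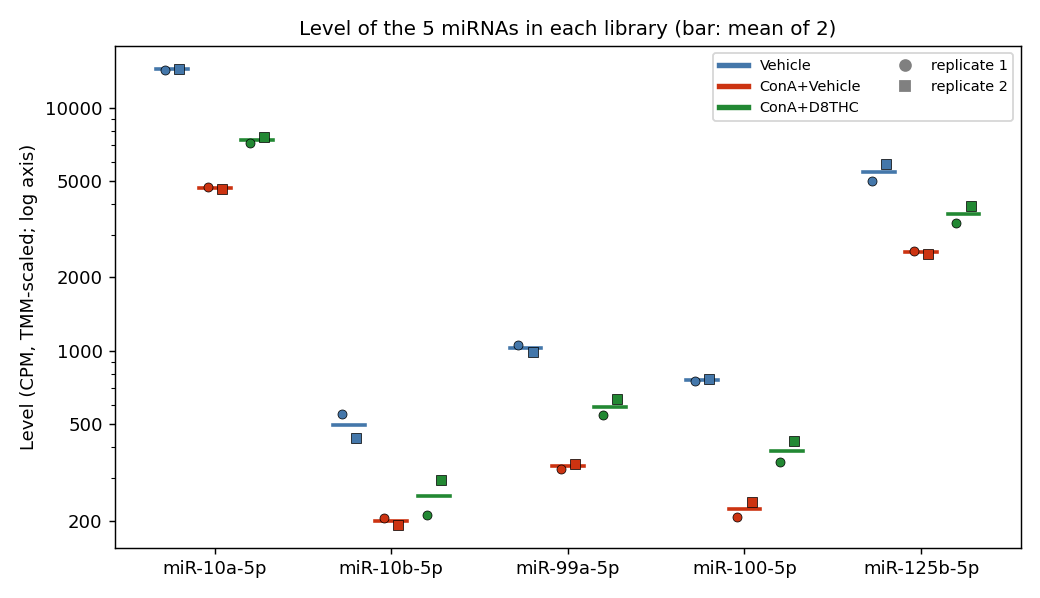
Level of each of the 5 miRNAs (x axis) in every library, in CPM on a log axis; points are libraries, coloured by group and shaped by replicate, and short bars are means of 2. For each miRNA the ConA+Vehicle points are lowest, the Vehicle points highest, and the ConA+D8THC points between them, from 212 to 293 CPM for miR-10b-5p and from 7135 to 7555 CPM for miR-10a-5p.

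ConA+Vehicle was set beside Vehicle to describe the family in ConA hepatitis. All 5 members were lower in ConA+Vehicle, by 2.13-fold to 3.40-fold, and for each the highest ConA+Vehicle library lay below the lowest Vehicle library. Lower libraries without overlap were seen for 29.3% of the 297 tested miRNAs. Since the members were chosen with this comparison known, nothing is read from this count. The median log2 fold change was -1.61 for the members and 0.10 for all 297.

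miR-10a-5p, the Hoxb-cluster member, was at 14345 and 14453 CPM in Vehicle and at 4717 and 4623 CPM in ConA+Vehicle. The replicates of either group lay close together, and the level was 3.08-fold lower in ConA+Vehicle (log2 -1.62 ± 0.20, approximate SE). miR-10b-5p, its Hoxd-cluster counterpart, was at 548 and 437 CPM in Vehicle and at 204 and 192 CPM in ConA+Vehicle. It was 2.48-fold lower (log2 -1.31 ± 0.27), with the Vehicle libraries further apart than those given ConA. Of the counts for this pair, miR-10a-5p made up 95.8% to 97.1% in the 6 libraries. The widest exact binomial 95% interval, in ConA+Vehicle replicate 2, was 94.9% to 97.0%, and such intervals cover counting error only. Per 1000 counts of miR-10a-5p, miR-10b-5p had 38.2 and 30.2 counts in Vehicle, 43.3 and 41.5 in ConA+Vehicle, and 29.6 and 38.8 in ConA+D8THC. The ConA+Vehicle libraries were highest, without overlap with the others. They rest on 82 and 58 counts of miR-10b-5p. For ConA+Vehicle replicate 2, the exact interval of the miR-10a-5p share overlapped those of all libraries of the other groups. For ConA+Vehicle replicate 1 it overlapped only those of Vehicle replicate 1 and ConA+D8THC replicate 2 among them.

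miR-99a-5p, from the chromosome 16 cluster, was at 1053 and 991 CPM in Vehicle and at 327 and 341 CPM in ConA+Vehicle, 3.06-fold lower (log2 -1.61 ± 0.23). miR-100-5p, its chromosome 9 counterpart, was at 749 and 763 CPM in Vehicle and at 207 and 238 CPM in ConA+Vehicle. This was the largest difference among the members, 3.40-fold lower (log2 -1.77 ± 0.24), and rests on 83 and 72 counts in the ConA+Vehicle libraries. miR-99a-5p made up 56.5% to 61.2% of the counts of the pair, and the intervals of all 6 libraries overlapped.

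miR-125b-5p, which has 2 loci, was at 4976 and 5853 CPM in Vehicle and at 2573 and 2502 CPM in ConA+Vehicle, 2.13-fold lower (log2 -1.09 ± 0.21). It differed least among the members. Its share of the counts of all 5 members was 23.0% and 26.0% in Vehicle, 32.0% and 31.7% in ConA+Vehicle, and 28.9% and 30.7% in ConA+D8THC. These shares do not depend on how libraries are scaled, and the Vehicle libraries lay below all others. No test is given for them, since the smallest exact two-sided permutation p for 2 against 2 libraries is 0.333.

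The effect of D8THC on the family was tested between the groups given ConA. All 5 members had higher levels in ConA+D8THC, by 1.27-fold to 1.76-fold, and none passed the threshold. The edgeR quasi-likelihood test across all miRNAs called 0 of 5 members higher at an adjusted p under 0.05, with 0% of all 297 miRNAs called higher and 3.7% lower. At an unadjusted p under 0.05, 4 of 5 members were higher, where 6.4% of all tested miRNAs were. DESeq2 called 2 members higher, miR-10a-5p and miR-99a-5p (background 1.68%), and limma-voom called 0 (0.337%). The libraries of the 5 members did not overlap between the groups, as was so for 21.5% of all tested miRNAs in this direction. The median log2 fold change was 0.65 for the members and -0.04 for all tested miRNAs. All these values carry the lean towards higher that comes with members selected for low ConA+Vehicle values.

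miR-99a-5p was at 543 and 635 CPM in ConA+D8THC replicates 1 and 2, above both ConA+Vehicle libraries. The difference was 1.76-fold (95% interval 1.25 to 2.49; log2 0.82 ± 0.23, edgeR adjusted p = 0.0765). miR-100-5p was at 347 and 427 CPM, 1.74-fold higher (interval 1.20 to 2.52; edgeR adjusted p = 0.0912). miR-10a-5p, at 7135 and 7555 CPM, was 1.57-fold higher (interval 1.17 to 2.12; edgeR adjusted p = 0.0876). The libraries of each lay above both ConA+Vehicle libraries, and the intervals, which are not adjusted for the number of miRNAs, lay above a ratio of 1, without correction for the choice of members.

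miR-125b-5p was at 3344 and 3952 CPM in ConA+D8THC, 1.44-fold higher (interval 1.05 to 1.97; edgeR adjusted p = 0.190). miR-10b-5p, the least abundant member, was at 212 and 293 CPM, 1.27-fold higher (interval 0.836 to 1.93; edgeR adjusted p = 0.616). Its replicate 1 lay just above the ConA+Vehicle libraries. The interval of miR-10b-5p includes the differences of the other members, so a smaller response of this miRNA was not shown.

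The calls changed with the libraries and the scaling. With 1 library left out, the log2 fold change ran from 0.64 to 0.71 for miR-10a-5p and from 0.73 to 0.94 for miR-99a-5p. That of miR-100-5p ran from 0.67 to 0.96. With the 4 libraries given ConA alone, edgeR called miR-10a-5p higher (adjusted p = 0.0468), where 4 of 253 tested miRNAs were called higher. With the arms of miR-126a and miR-122 left out of the scaling it called miR-99a-5p, miR-100-5p and miR-10a-5p (adjusted p = 0.0216, 0.0360 and 0.0395). There, 8 of 297 tested miRNAs were called higher, and the median of all tested miRNAs moved by 0.17 on the log2 scale. Over the 14 alternatives the adjusted p ran from 0.00588 to 0.418 for miR-99a-5p, from 0.0157 to 0.494 for miR-100-5p and from 0.00859 to 0.517 for miR-10a-5p.

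**Figure D2:**
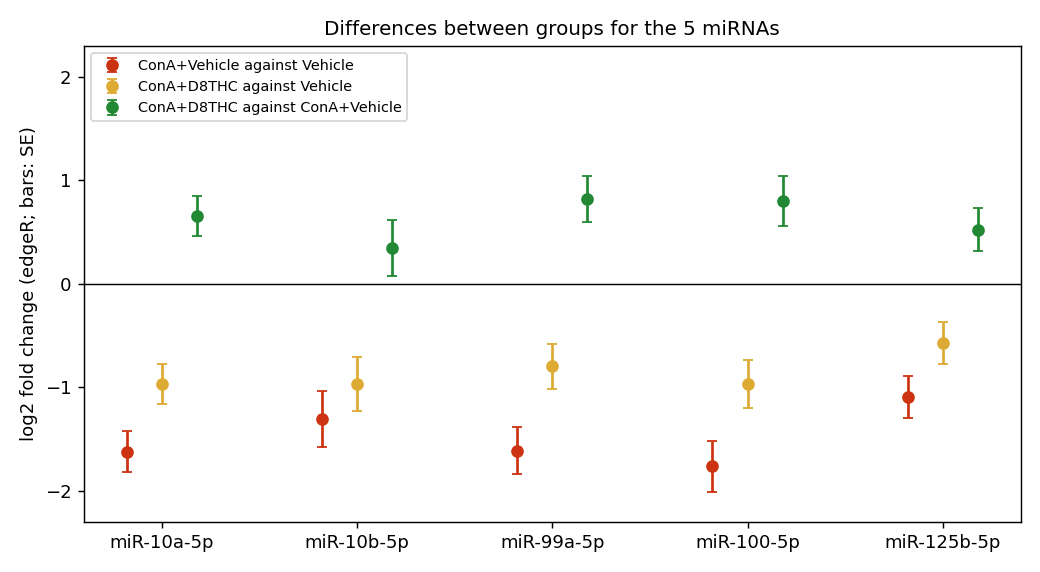
Log2 fold change from edgeR (y axis) of each of the 5 miRNAs in the 3 comparisons; points are estimates, bars approximate standard errors, and the line at 0 marks no difference. All 5 values lie below 0 for ConA+Vehicle against Vehicle (-1.77 to -1.09) and for ConA+D8THC against Vehicle (-0.97 to -0.57), and above 0 for ConA+D8THC against ConA+Vehicle (0.34 to 0.82).

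ConA+D8THC was also set beside Vehicle, to describe how far the levels of mice given both agents lay from the unchallenged ones. All 5 members were lower in ConA+D8THC, with libraries that did not overlap, as was so in this direction for 37% of all tested miRNAs, and nothing is read from this count. miR-10a-5p was 1.96-fold lower (log2 -0.97 ± 0.20), miR-100-5p 1.96-fold (-0.97 ± 0.23), miR-10b-5p 1.95-fold (-0.97 ± 0.26) and miR-99a-5p 1.74-fold (-0.80 ± 0.22). miR-125b-5p differed least and was 1.48-fold lower (-0.57 ± 0.20). The comparisons have control libraries in common, and their fold changes are not independent of each other.

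Some markers of other cell types had the same order of groups as the members, and others did not. The endothelial miR-126a arms, both counted in every library, summed to 340155 to 351167 CPM in Vehicle, 121343 to 141037 in ConA+Vehicle and 195490 to 261910 in ConA+D8THC, the same order of groups as the members. The myeloid miR-223 arms, also counted in every library, went the other way, from 3461 to 3630 CPM in Vehicle to 26179 to 31136 in ConA+Vehicle, and were at 14499 to 20470 in ConA+D8THC. Of the 6 stellate cell, fibroblast and smooth muscle markers, all counted in every library, miR-199a-3p was at 7277 ± 440 CPM (SD, n = 2) in Vehicle, 3272 ± 311 after ConA+Vehicle and 5645 ± 1733 after ConA+D8THC, and miR-199a-5p had the same order. miR-143-3p was at 4374 ± 403, 5856 ± 2941 and 3034 ± 1784 CPM in these groups, highest on average in ConA+Vehicle. miR-145a-5p (480 ± 19.8, 389 ± 339 and 150 ± 47.3 CPM) and miR-214-3p (30.2 ± 5.63, 12.9 ± 0.55 and 12.6 ± 0.30 CPM) had no higher mean in ConA+D8THC than in ConA+Vehicle. The whole list took 1.28% to 1.32%, 0.740% to 1.29% and 0.744% to 1.26% of counts and overlapped between the groups given ConA. Hepatocyte markers, 6 of 6 counted in every library, summed to 86894 to 142706 CPM in Vehicle, 162234 to 210951 in ConA+Vehicle and 48822 to 70278 in ConA+D8THC, a different order. Most of this sum was miR-122-5p (means of 102526, 157786 and 49072 CPM). Of the 6, miR-122-3p was highest in Vehicle, with means of 173, 75.5 and 28.2 CPM, and the means of the others were highest in ConA+Vehicle. Bile duct markers took 0.449%, 0.455% and 0.433% of counts on average in Vehicle, ConA+Vehicle and ConA+D8THC. Averages in these groups were highest in ConA+Vehicle for the summed lymphocyte (0.685%, 0.991% and 0.840%) and erythroid markers (0.0732%, 0.133% and 0.0498%). Of the lymphocyte markers, miR-150-5p was highest there (0.526%, 0.767% and 0.546%). In contrast, miR-342-3p was highest in ConA+D8THC (0.111%, 0.187% and 0.254%) and miR-181a-5p in Vehicle (0.0485%, 0.0367% and 0.0396%). The lymphocyte sums overlapped between the groups given ConA (0.868% to 1.11% and 0.637% to 1.04%). The pan-haematopoietic arms were on average at 4.92%, 9.66% and 9.45%, and the groups given ConA overlapped (9.03% to 10.3% and 7.72% to 11.2%). The part of these cell types in the members' differences was not tested.

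Set against miR-126a in the same library, the members differed less between Vehicle and ConA+Vehicle than in CPM. miR-10a-5p had 42.2 and 41.2 counts per 1000 counts of the miR-126a arms in Vehicle, 38.9 and 32.8 in ConA+Vehicle, and 36.5 and 28.8 in ConA+D8THC. The Vehicle libraries were highest, by far less than the 3.08-fold difference in CPM, and the groups given ConA overlapped. miR-99a-5p had 3.10 and 2.82, then 2.69 and 2.42, then 2.78 and 2.42 per 1000. miR-100-5p had 2.20 and 2.17 per 1000 in Vehicle, 1.71 and 1.69 in ConA+Vehicle, and 1.77 and 1.63 in ConA+D8THC, so that its Vehicle libraries lay above all others.

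miR-125b-5p went the opposite way on this scale, with 14.6 and 16.7 counts per 1000 in Vehicle, 21.2 and 17.7 in ConA+Vehicle, and 17.1 and 15.1 in ConA+D8THC. miR-10b-5p had 1.61 and 1.24, then 1.68 and 1.36, then 1.08 and 1.12 per 1000, lowest in ConA+D8THC. Between the groups given ConA its libraries did not overlap, and it was lower with D8THC, where its CPM was higher. Set against miR-142a-3p, the pan-haematopoietic marker, the members differed between Vehicle and ConA+Vehicle by more than in CPM. miR-10a-5p had 0.225 and 0.706 counts per count of miR-142a-3p in Vehicle, 0.0624 and 0.0620 in ConA+Vehicle, and 0.0873 and 0.127 in ConA+D8THC. miR-125b-5p had 0.0780 and 0.286, then 0.0340 and 0.0335, then 0.0409 and 0.0663. The Vehicle libraries were highest and lay far apart, and miR-142a-3p itself was at 63824 and 20468 CPM in them. Neither set of ratios is affected by library scaling, and both are given without a test.

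**Figure D3:**
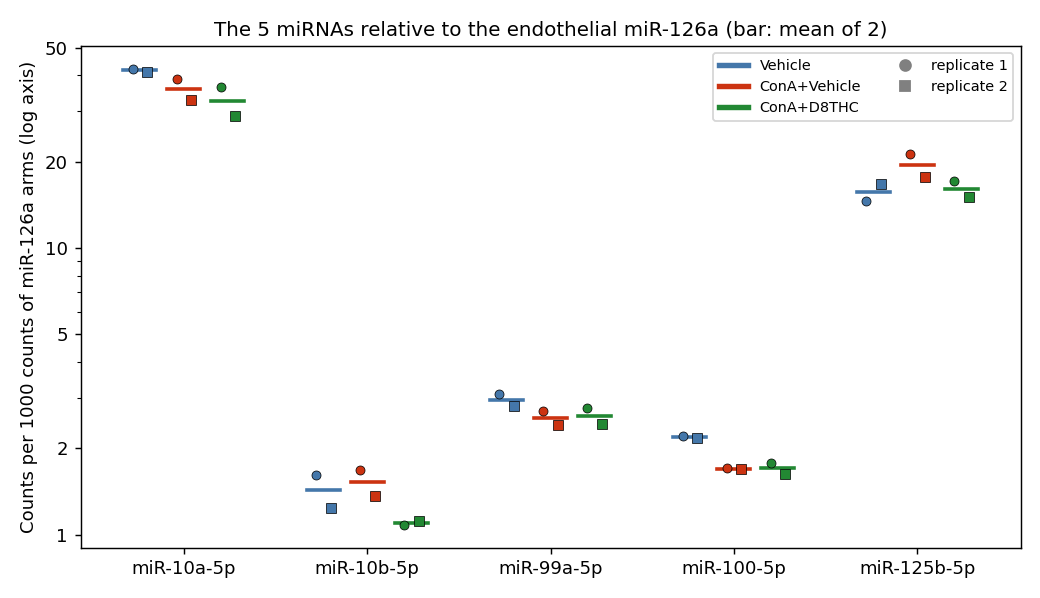
Counts of each of the 5 miRNAs per 1000 counts of the endothelial miR-126a arms in the same library, on a log axis; points are libraries and short bars are means of 2. Over the 3 groups together the spread is smaller than that in CPM: miR-10a-5p runs from 28.8 to 42.2 and miR-99a-5p from 2.42 to 3.10 per 1000.

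The tested miRNAs with the most similar profiles were found by the root mean square difference of mean-centred log2 CPM over the 6 libraries, which share their depth and scaling, and the values are a description. Among the members, miR-99a-5p and miR-100-5p were closest (0.09 log2 units), followed by miR-10a-5p with miR-99a-5p (0.10) and with miR-100-5p (0.11). miR-10b-5p and miR-125b-5p stood 0.21 to 0.29 from the others. Outside the members, miR-126a-3p was nearest to miR-99a-5p (0.13) and to miR-100-5p (0.16). The nearest to miR-10a-5p was miR-125a-5p (0.13), followed by miR-503-3p (0.18) and miR-126a-3p (0.19). let-7e-5p (0.14), miR-125a-5p (0.15) and the fibroblast-associated miR-199a-5p (0.16) were nearest to miR-125b-5p. miR-10b-5p was nearest to miR-335-5p (0.16), miR-497a-5p (0.18) and miR-455-5p (0.20). The median over the 296 other miRNAs was 0.65 to 0.86 for the 5 members.

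The rest of the families and clusters was followed in a list of 21 entries: the other arms of the members' hairpins, their let-7 neighbours, the Spaca6 cluster and other Hox-embedded miRNAs. Of these, 20 were in the table, 19 had a count and 12 passed the filter on low counts. The list was also drawn up with earlier results of these data known. Its calls are a description, and nothing is read from their number beside the background. In ConA+Vehicle against Vehicle, edgeR called 6 of the 12 lower, beside a background of 16.8%, and 1 higher, beside 19.9%. Fewer of the 12 were called lower without ConA+Vehicle replicate 1. The 6 were miR-10a-3p, both miR-99b arms, miR-125a-5p, let-7e-5p and let-7c-5p, and the higher one was miR-196b-5p. Of these, miR-99b-3p rests on 4 and 0 counts in the ConA+Vehicle libraries (log2 -2.42 ± 0.75). The median log2 fold change of the 12 was -1.01. In ConA+D8THC against Vehicle edgeR called 3 lower, beside 14.1%, and this count changed with some of the libraries left out. In ConA+D8THC against ConA+Vehicle edgeR called 0 of the 12, with 2 higher and 1 lower at an unadjusted p under 0.05, where 6.4% of all tested miRNAs were higher and 12.5% lower. DESeq2 called 1 higher, beside 1.68% of all tested, and limma-voom 0, beside 0.337%. Their median was 0.20.

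The passenger arms, the strands of a hairpin that are usually degraded, were scarce. miR-10a-3p, the best counted, was at 301 and 332 CPM in Vehicle, 117 and 189 in ConA+Vehicle, and 185 and 229 in ConA+D8THC. It was 2.09-fold lower in ConA+Vehicle than in Vehicle (log2 -1.06 ± 0.30) and lay between in ConA+D8THC, where replicate 1 was below ConA+Vehicle replicate 2. The guide arm made up 96.1% to 97.9% of the counts of the miR-10a hairpin. miR-99a-3p had 15 and 21 counts in Vehicle, 3 and 3 in ConA+Vehicle, and 10 and 9 in ConA+D8THC. In CPM these were 20.7 and 18.4, then 7.48 and 9.93, then 10.3 and 12.8. miR-100-3p and miR-10b-3p had at most 7 counts in a library and were not tested.

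The miR-125b passenger arms, unlike the guide, tell the 2 loci apart. miR-125b-2-3p, from chromosome 16, had 46 and 102 counts in Vehicle, 17 and 11 in ConA+Vehicle, and 28 and 37 in ConA+D8THC. Scaled for library size, it was at 63.5 and 89.4 CPM in Vehicle, 42.4 and 36.4 in ConA+Vehicle, and 28.9 and 52.6 in ConA+D8THC. The groups given ConA overlapped (log2 0.02 ± 0.43, edgeR adjusted p = 0.990). miR-125b-1-3p, from chromosome 9, had 6 and 8 counts, then 0 and 0, then 1 and 3. Taken library by library, the 0 in ConA+Vehicle allows up to 7.48 and 9.93 CPM (3 counts), while the Vehicle libraries were at 8.28 and 7.01. This arm did not pass the filter on low counts, and a difference was not tested. The chromosome 16 arm made up 88.5% (exact interval 76.6% to 95.6%) and 92.7% (86.2% to 96.8%) of the passenger counts in the Vehicle libraries. Passenger arms can differ in stability, so these shares are not shares of transcription.

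The let-7 neighbours differed from the members they lie beside. let-7c-5p, encoded next to miR-99a and also by Mirlet7c-2, was at 22395 and 28590 CPM in Vehicle, 13339 and 15773 in ConA+Vehicle, and 13153 and 16594 in ConA+D8THC. It was 1.75-fold lower in ConA+Vehicle than in Vehicle, and the groups given ConA overlapped (log2 0.03 ± 0.23, edgeR adjusted p = 0.985). Per 1000 counts of let-7c-5p, miR-99a-5p had 47.0 and 34.6 counts in Vehicle, 24.5 and 21.6 in ConA+Vehicle, and 41.3 and 38.2 in ConA+D8THC. The ratio was thus lowest in ConA+Vehicle, and the ConA+D8THC libraries lay within the Vehicle range. let-7a-5p, a product of Mirlet7a-2 beside miR-100 and of other let-7a genes, was at 28703 ± 1636 CPM (SD, n = 2) in Vehicle, 23455 ± 1479 after ConA+Vehicle and 23027 ± 415 after ConA+D8THC. Per 1000 counts of let-7a-5p, miR-100-5p had 27.2 and 25.5 counts, then 9.23 and 9.73, then 14.9 and 18.8, with no overlap between the groups.

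The Spaca6 paralogs had the same order of groups as the members. miR-125a-5p, the seed partner of miR-125b-5p, was at 3160 and 4023 CPM in Vehicle, 1379 and 1284 in ConA+Vehicle, and 1874 and 2096 in ConA+D8THC. miR-99b-5p, the seed partner of miR-99a-5p and miR-100-5p, was at 1010 and 1534 CPM, then 504 and 635, then 983 and 1111. Its ConA+D8THC replicate 2 lay within the Vehicle range, which was not so for either partner. miR-125b-5p made up 59.3% to 61.2% of the counts of the miR-125 pair in Vehicle, 65.1% to 66.1% in ConA+Vehicle and 64.1% to 65.3% in ConA+D8THC.

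The Hox-embedded miR-196b-5p moved opposite to the miR-10 miRNAs. Its hairpin lies on the minus strand of chromosome 6, 52230081 to 52230165, in an exon of Hoxa9, and it is known from haematopoietic progenitors and myeloid cells. It was at 33.1 and 20.2 CPM in Vehicle, 82.3 and 82.7 in ConA+Vehicle, and 39.2 and 35.6 in ConA+D8THC. The ConA+Vehicle libraries were highest, 3.15-fold above Vehicle (log2 1.66 ± 0.37). In ConA+D8THC it was 2.19-fold below ConA+Vehicle and not called (log2 -1.13 ± 0.36, edgeR adjusted p = 0.101). Its counts were 23 to 38 in every library. miR-196a-5p had 1 to 4 counts in a library and miR-615-3p had none.

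**Figure D4:**
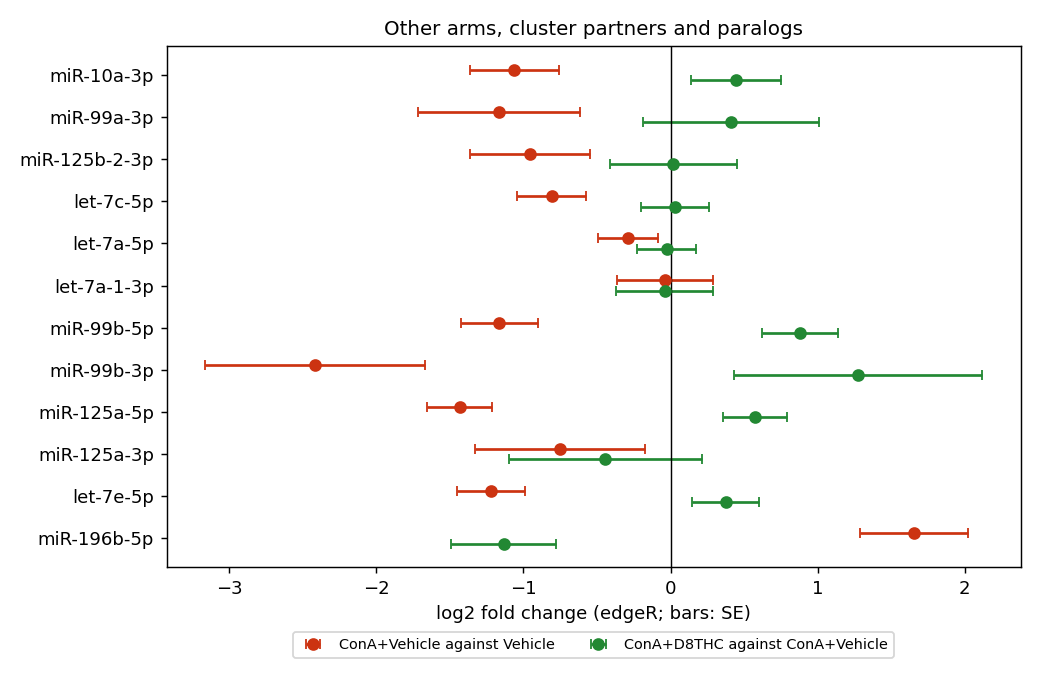
Log2 fold change from edgeR (x axis) of the 12 tested arms, cluster partners and paralogs (y axis) in ConA+Vehicle against Vehicle and in ConA+D8THC against ConA+Vehicle; bars are approximate standard errors and the line marks 0. Of the 12 values against Vehicle, 11 lie below 0, the exception being miR-196b-5p at 1.66, and let-7a-5p and let-7c-5p lie near 0 in the comparison of D8THC.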

How the data were processed

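The authors deposited 1 table of raw counts per mature miRNA from the GeneGlobe portal of QIAGEN, per the series' design text, with build mm10, per the submitters' processing notes. The sources used here do not give the aligner or the annotation release, nor whether reads or molecular identifiers make up the counts. edgeR 4.0.16 in R 4.3.3 gave the main tests, with limma 3.58.1 and DESeq2 1.42.0 as alternatives; figures used Python 3.11.15 and matplotlib 3.10.9. filterByExpr (minimum count 10) kept 297 miRNAs. TMM factors, a group design over 6 libraries (3 residual degrees of freedom), robust glmQLFit and glmQLFTest gave the tests, adjusted by Benjamini-Hochberg over the 297 and called under 0.05. Standard errors are log2 fold changes divided by the root of F, and 95% intervals use the moderated degrees of freedom. Profiles used log2 CPM with a prior count of 2. The procedure was tested on simulated data, with 200 of 806 miRNAs changed, up or down with equal probability. For ConA+D8THC against ConA+Vehicle it called 29.6% of changes set at 2-fold, 83.1% of those at 4-fold and 1.01% of unchanged miRNAs. Each simulated miRNA had the spread fitted for miRNAs of its level and none of its own, so rates in the real libraries can differ. Replicates of a group differed by more than counting noise (chi-square per degree of freedom 13.7 to 216), and each was kept as 1 library; repeat preparations from the same mice could also do so. The members, lists and tests were chosen with earlier results of these data known. Named are the members, the list of arms, neighbours and paralogs, the 3 nearest profiles per member, and cell type markers; let-7c-2-3p was not matched in the table. Alternatives were other tools, scalings, no filter, fewer libraries and a replicate block.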

Additional observations from a re-analysis of the deposited data

How the results depend on the processing

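Against ConA+Vehicle, the fold changes of the members in ConA+D8THC kept their sign under all 14, and the count of called members was 0 by edgeR's main setting, 2 by DESeq2, 3 with miR-126a and miR-122 arms left out of the scaling, 1 with the 4 libraries of the compared groups only, and 0 to 3 with a library left out. For the list of arms, neighbours and paralogs these counts were 0, 1, 1, 2 and 0 to 2. With a library left out, the list had 4 to 9 called in ConA+Vehicle against Vehicle and 0 to 6 in ConA+D8THC against Vehicle. The cause was not tested. For the members, chosen with related values known, no calls are given in these 2 comparisons. Without ConA+D8THC replicate 1, their log2 fold changes in ConA+D8THC against Vehicle ran from -0.91 (miR-10a-5p) to -0.44 (miR-125b-5p). Over all miRNAs the D8THC comparison called 0 higher and 11 lower, 5 and 12 by DESeq2, 8 and 15 without those arms in the scaling, 4 and 14 with 4 libraries, 0 and 19 with no filter, 1 and 16 with upper-quartile factors, 1 and 10 with library totals, and 8 to 40 in all with a library left out. In ConA+D8THC against Vehicle 55 were higher and 42 lower, or 63 and 34 with library totals; in ConA+Vehicle against Vehicle 67 were called without ConA+Vehicle replicate 1, against 109. Scaling moved the median log2 fold change of all miRNAs by up to 0.17; relative to that median, the members stayed between 0.37 and 0.87 in the D8THC comparison. The replicate numbers are shared only as numbers: deviations of same-numbered libraries correlated at 0.20, 0.24 and 0.07 across miRNAs between pairs of groups. With the replicate block, 4 members and 3 of the list were called in the D8THC comparison, and 44 of all miRNAs. At this depth 3 counts stood for 2.63 to 9.93 CPM.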

Other observations

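The seed of miR-125b-5p is also held by miR-351-5p, which lies outside the families above and was picked after the sequences were compared. It was at 146 and 241 CPM in Vehicle, 57.3 and 46.3 in ConA+Vehicle, and 96.0 and 107 in ConA+D8THC. The order of the groups was that of miR-125b-5p, with no overlap, at 14 to 275 counts in a library. The other entries with this seed, miR-6367 and miR-6394, had no count.

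In the Spaca6 cluster, miR-99b-5p had 397 and 467 counts per 1000 counts of its neighbour let-7e-5p in Vehicle, 433 and 473 in ConA+Vehicle, and 665 and 629 in ConA+D8THC. The ratio was highest in ConA+D8THC, while that of miR-99a-5p to let-7c-5p was lowest in ConA+Vehicle. Both ratios are unaffected by library scaling and were not tested.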
